A study of Oryza sativa with 3 samples.

Results

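The plasma membrane intrinsic proteins (PIPs) are the aquaporins that carry water across the plasma membrane of plant cells, and rice groups them into PIP1 and PIP2. Array probes were assigned to 10 PIP loci by the locus ID at the start of the probe name, out of 29690 loci with a probe on the array. These 10 loci carried 30 probes and comprised PIP1;1 to PIP1;3 and PIP2;1 to PIP2;7, written from here on as PIP1-1 and so on, the spelling of a RefSeq gene table. The pairing of gene names with locus IDs was taken as given. That table, for another assembly (ASM3414082v1), listed all 10 names, each on the chromosome that its locus ID gives, but did not hold the locus IDs.

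Roots of rice seedlings (Oryza sativa, cultivar TN67, 6 days old, grown in the dark) were exposed to 1 mM vanadate, or to water as the control. Each of the 3 biological replicates was one RNA pool per treatment, combining fixed volumes of root samples taken at 1 h and 3 h, so the times cannot be separated. Each replicate was hybridised to 1 array, with vanadate RNA in Cy5 and water RNA in Cy3 on all 3, so that a dye effect and a treatment effect cannot be told apart. Replicates 1 and 2 shared a slide and replicate 3 was on another.

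In roots, aquaporins set much of the water permeability along the path from the soil to the xylem. When expressed alone, PIP2 proteins generally form active water channels, whereas many PIP1 proteins reach the plasma membrane efficiently only together with PIP2 partners. Their transcript levels in roots are known to respond to water supply, salt and time of day. Vanadate resembles phosphate and inhibits P-type ATPases.

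Transcripts of the listed PIP genes with a measurable signal were lower in vanadate-treated roots than in water-treated roots. Of the 10 listed genes, 9 passed the filter on dim probes, and all 9 fell (limma, adjusted p under 0.05), with 0 higher. For comparison, 20.7% of all 22025 tested genes were called lower and 29.1% higher. The falls lay between 1.39-fold for PIP2-4 and 2.25-fold for PIP2-3, and the median log2 ratio of vanadate over water was -0.79, against 0.02 over all tested genes. The tenth gene, PIP2-7, was not well above background in either channel on any array. The tested PIP probes were bright, so the share was also taken among bright genes. Of genes at least as bright as PIP2-4, the dimmest tested PIP gene, 21.3% were called lower, and of those at least as bright as PIP2-3, the next dimmest, 19.3%, with a median log2 ratio of 0.06. Vanadate and water levels did not overlap across the arrays in 7 of the 9 genes, with vanadate the lower, and this held for 16.6% of all tested genes. In whole roots, fewer cells of a type and less RNA per cell cannot be told apart.

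**Figure D1:**
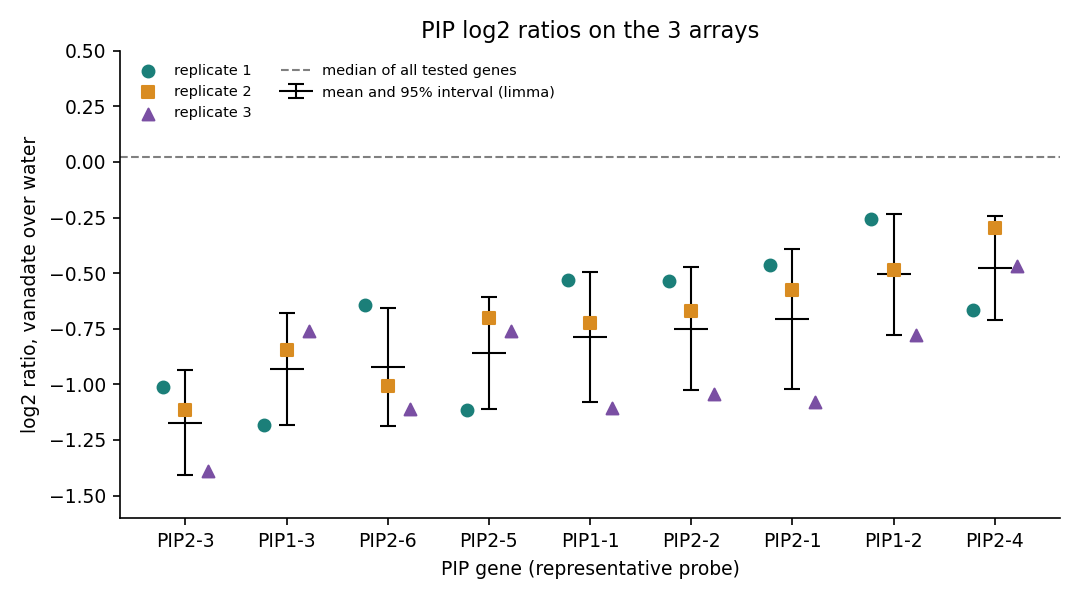
Log2 ratio of vanadate over water (vertical axis) for the representative probe of each tested PIP gene, ordered by the mean. Coloured symbols are the 3 arrays, black marks the mean with limma's 95% interval, and the dashed line the median of all tested genes (0.02). All 27 array values lie below 0, and PIP2-3 has the lowest mean (-1.17). Of all tested genes, 33.7% lie below 0 on all 3 arrays.

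Levels are given as normalized intensity in arbitrary units, per channel and array, for the brightest tested probe of a gene. They compare the same probe between treatments and not one gene with another.

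PIP1-1 (Os02g0666200), also known as RWC1, is a PIP1 channel known to move little water when expressed alone. Its normalized intensity was 34968, 44776 and 31342 in vanadate on the arrays of replicates 1, 2 and 3, against 50540, 73994 and 67454 in water. Every vanadate value lay below every water value. The log2 ratio was -0.79 ± 0.12 (SE, n = 3, adjusted p = 0.00266 in limma), a 1.73-fold fall (95% interval 1.41 to 2.11).

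PIP1-2 (Os04g0559700) belongs to the same subgroup, and its product has been studied as a CO2-permeable channel in rice leaves. Its normalized intensity was 14695, 19146 and 11522 in vanadate and 17536, 26772 and 19753 in water. The ranges overlapped, since vanadate in replicate 2 exceeded water in replicate 1, although vanadate was the lower channel on each array. The log2 ratio was -0.51 ± 0.11 (SE, n = 3, adjusted p = 0.0117 in limma), a 1.42-fold fall. With arrays centred on their median in place of loess the call was lost (log2 ratio -0.49, adjusted p = 0.0566).

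PIP1-3 (Os02g0823100), known as RWC3 and studied in drought avoidance of upland rice, had the largest fall of the PIP1 genes. Its normalized intensity was 4133, 7634 and 8491 in vanadate, against 9384, 13735 and 14389 in water. Vanadate values all lay below the water values, with replicate 1 lowest in both channels. This gave a log2 ratio of -0.93 ± 0.10 (SE, n = 3, adjusted p = 0.000738 in limma), a 1.91-fold fall. Without replicate 1, however, PIP1-1 fell more than PIP1-3 (-0.92 against -0.80).

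PIP2-1 (Os07g0448800) encodes a water channel known for its part in root hydraulic conductivity of rice. Its normalized intensity was 40740, 45782 and 37493 in vanadate, against 56204, 68235 and 79212 in water. The channels did not overlap, and the water level of replicate 3 was the highest value. On the log2 scale the ratio was -0.71 ± 0.13 (SE, n = 3, adjusted p = 0.00547 in limma), a 1.63-fold fall. Under median centring it was -0.50 and missed the threshold (adjusted p = 0.0523).

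PIP2-2 (Os02g0629200) gave a normalized intensity of 8384, 11671 and 7146 in vanadate and of 12151, 18544 and 14734 in water. Again no vanadate value reached the lowest water value. Its log2 ratio was -0.75 ± 0.11 (SE, n = 3, adjusted p = 0.00255 in limma), a 1.68-fold fall. The other probe of PIP2-2 was left out because its spot was flagged as an outlier on replicate 3, and on replicates 1 and 2 it was at -0.55 and -0.68.

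PIP2-3, PIP2-4 and PIP2-5 are known as PIP genes expressed mainly in roots. PIP2-3 (Os04g0521100) fell by more than 2-fold. Its normalized intensity was 4578, 8282 and 4748 in vanadate, against 9240, 17923 and 12436 in water. All 3 vanadate values were below the lowest water value. The log2 ratio was -1.17 ± 0.10 (SE, n = 3, adjusted p = 0.000213 in limma), a 2.25-fold fall with a 95% interval of 1.91 to 2.66. No other listed PIP gene passed 2-fold in the reported fit. PIP1-3 did in the authors' value table and with the processed signals (-1.04 in each) and without replicate 3 (-1.02). The value table and the processed signals are uncentred, with the median of all tested genes at -0.12 in each. Of all tested genes, 0.835% had a lower log2 ratio than PIP2-3 in the reported fit.

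PIP2-4 (Os07g0448100) also fell. Its normalized intensity was 1691, 2592 and 1303 in vanadate and 2684, 3183 and 1801 in water. The ranges overlapped, because the water level of replicate 3 lay below the vanadate level of replicate 2. The log2 ratio was -0.48 ± 0.10 (SE, n = 3, adjusted p = 0.0078 in limma), a 1.39-fold fall. This was the smallest fall here, but PIP1-2 fell less with the processed signals (-0.52 against -0.66), in the authors' value table (-0.52 against -0.66), under median centring (-0.49 against -0.61), without replicate 2 (-0.52 against -0.57) and without replicate 3 (-0.37 against -0.48).

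PIP2-5 (Os07g0448200), whose protein is known from the root endodermis and neighbouring cells, had a normalized intensity of 7762, 12588 and 9376 in vanadate, against 16817, 20471 and 15863 in water. There was no overlap, and replicate 1 had the lowest vanadate level. Its mean log2 ratio was -0.86 ± 0.10 (SE, n = 3, adjusted p = 0.00103 in limma), a 1.81-fold fall. PIP2-4, PIP2-5 and PIP2-1 neighbour each other on chromosome 7, with 1 annotated gene between PIP2-4 and PIP2-5 and 0 between PIP2-5 and PIP2-1 in the RefSeq table. Their log2 ratios were -0.48, -0.86 and -0.71.

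PIP2-6 (Os04g0233400), studied with PIP2-4 and PIP2-7 in arsenite transport, had a normalized intensity of 12992, 14122 and 11354 in vanadate, against 20261, 28363 and 24548 in water. The vanadate values lay close together and below all water values. The mean log2 ratio of vanadate over water was -0.92 ± 0.11 (SE, n = 3, adjusted p = 0.000954 in limma), a 1.89-fold fall.

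PIP2-7 (Os09g0541000) was measured by 4 probes, none of them well above background in vanadate or in water. The median spot signal of its probe AK104786 was 70, 80 and 68 in vanadate, against a local background of 61, 61 and 57, and 163.5, 174.5 and 105 in water, against a local background of 59, 64 and 38. These signals are before background correction and normalization between the dyes, so they do not compare vanadate with water. No fold is given, since both channels were below the level of reliable signal.

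**Figure D2:**
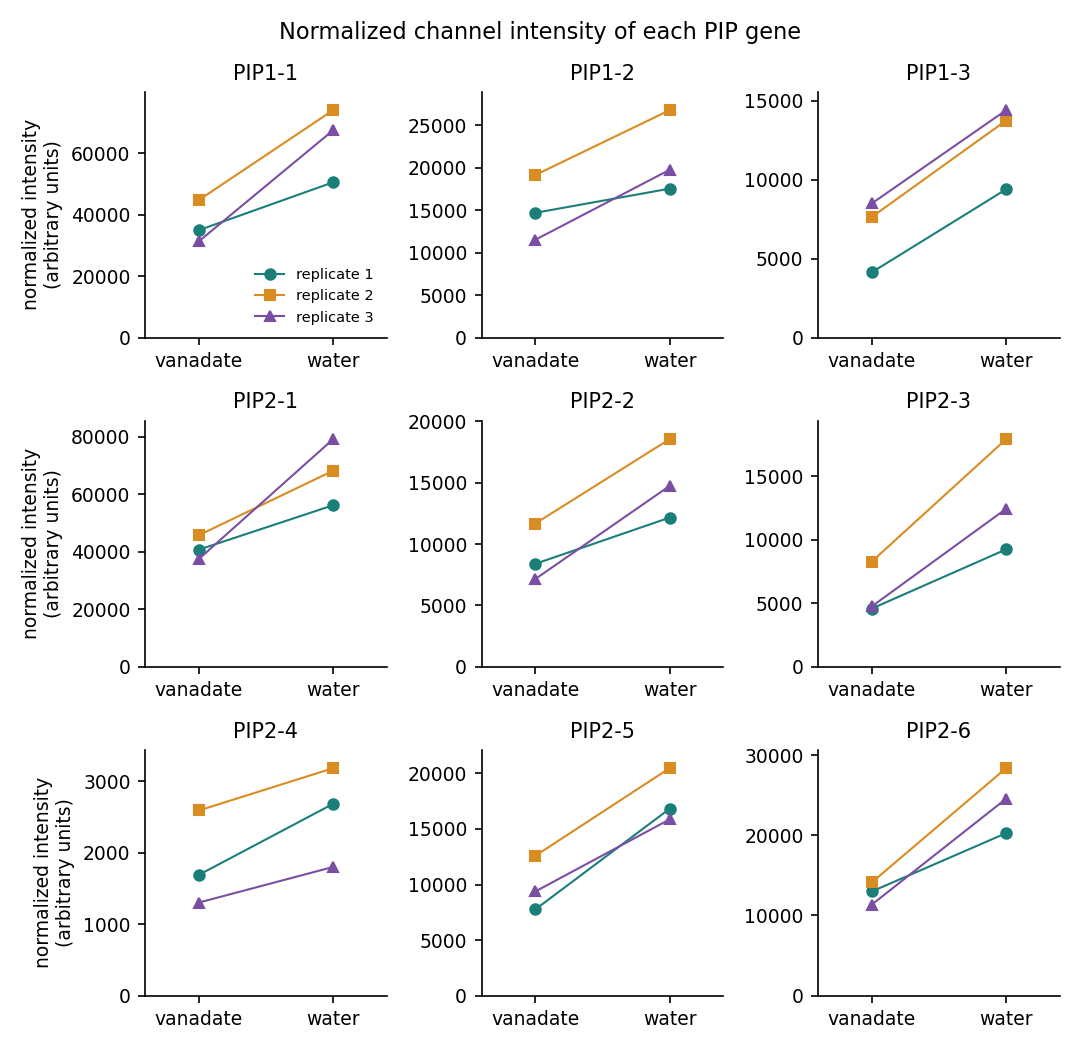
Normalized intensity (arbitrary units, axis from 0) of the representative probe in vanadate (left) and water (right) for the 9 tested PIP genes, with a line joining both channels of an array. Every line runs upward from vanadate to water, and only PIP1-2 and PIP2-4 have overlapping channel ranges.

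Probes of the same gene pointed the same way. Of the 30 PIP probes, 24 were tested, all 24 were called lower, and their log2 ratios lay below 0 on every array. Among all tested genes, each by its representative probe, 20.7% were called lower and 33.7% lay below 0 on every array. The 6 untested probes were the 4 of PIP2-7 and 1 each of PIP2-2 and PIP2-6 with a flagged spot. The 6 probes of PIP1-1 spanned log2 ratios of -0.82 to -0.58, the 7 of PIP2-1 spanned -0.76 to -0.59, and the 3 of PIP1-2 lay at -0.54 to -0.51. The widest span was in PIP2-6, where 2 probes were at -0.92 and -0.90 and the third, AK119661, was at -0.50 ± 0.09 (SE). In PIP1-1 the 2 dimmest probes, AJ224327 and AK103807, gave the smallest falls, at -0.58 and -0.60. Probes of a gene share its transcripts and are not replicates of the treatment. Probe sequences were not used here, so the extent to which a probe also binds transcripts of related PIP genes was not tested.

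**Figure D3:**
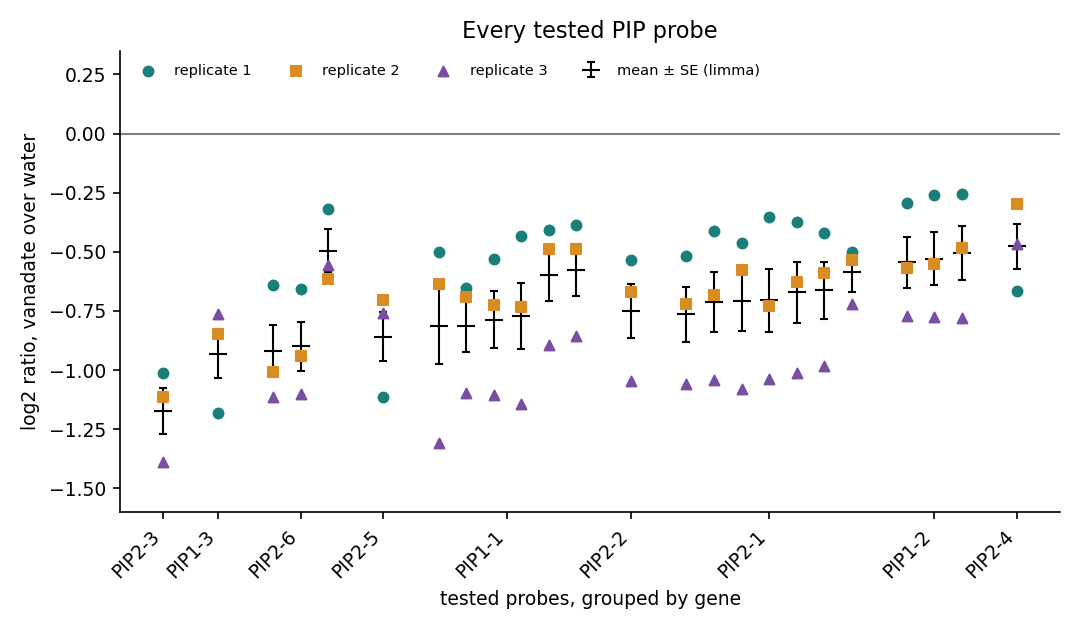
Log2 ratio of vanadate over water for each of the 24 tested PIP probes, grouped by gene, with coloured symbols for the 3 arrays and black marks for the mean ± SE. All symbols lie below 0, and probes of PIP1-1, PIP2-1 and PIP1-2 cluster by gene while PIP2-6 has 1 probe apart at -0.50.

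The order of the falls was only partly stable between arrays. Among 36 pairs of tested PIP genes, 17 had the same order on all 3 arrays. Of the 8 pairs next to each other in the order of the means, 1 kept its order, with PIP2-1 below PIP1-2 by 0.20 ± 0.10 on the log2 scale (SD, n = 3), and 6 differed by no more than the SD of their difference. PIP2-3 was below PIP1-2 on every array, by 0.67 ± 0.08 (SD, n = 3). It was also below PIP2-4 on every array, by 0.70 ± 0.31 (SD, n = 3). These pairs were not tested.

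The genes also differed in which array showed the largest fall. In 6 genes, PIP1-1, PIP1-2, PIP2-1, PIP2-2, PIP2-3 and PIP2-6, the fall was smallest on replicate 1 and largest on replicate 3. PIP1-1, for example, was at -0.53 on replicate 1, at -0.72 on replicate 2 and at -1.11 on replicate 3. In the other 3 genes the largest fall was on replicate 1: PIP1-3 was at -1.18, -0.85 and -0.76, and PIP2-5 at -1.12, -0.70 and -0.76. PIP2-4 was at -0.67, -0.30 and -0.47. The median over the 9 genes was -0.64, -0.70 and -1.04 on replicates 1, 2 and 3, while the median of all tested genes was 0.03 on each. Without replicate 3 the median over the 9 genes was -0.63, and all 9 were still called lower, beside 17.1% of all tested genes. Over the 3 arrays the PIP genes lay between the 0.8th and the 22.1st percentile of the log2 ratios of all tested genes.

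Other features of the arrays moved with replicate as well. On replicate 3, 958 of 43144 gene spots carried an outlier flag, against 172 and 129 on replicates 1 and 2, and 0 spots were saturated. Over all tested genes, 29.1% were called higher and 20.7% lower. Of 5 shoot markers (small subunits of Rubisco and light-harvesting proteins), 4 were tested and 0 were called. Their summed normalized intensity was 584, 556 and 696 in vanadate on replicates 1, 2 and 3, against 552, 520 and 2959 in water. In water on replicate 3, Os09g0346500 was at 1784, Os01g0600900 at 671 and Os12g0291100 at 322, each its highest water level. Os12g0274700 was at 181 there, between its 135 and 190 on replicates 1 and 2. The water channel of replicate 3 thus stood apart in the sum and in these genes except Os12g0274700. Its part in the larger falls on that array was not tested. Of 3 endodermis and exodermis markers, Lsi1 and Lsi2 fell and CASP1 rose, with summed levels of 4708 to 8133 in vanadate and 18691 to 20085 in water. Most of the water sum was Lsi1, at 2477 to 5083 in vanadate and 16304 to 17107 in water. Lsi1 is also 1 of the other aquaporins below. The log2 ratio was -1.02 for Lsi2 and 0.37 for CASP1, so the sum does not stand for the whole list. PHO1;2, the 1 tested of 2 stele markers, fell, with 840 to 1261 in vanadate and 1653 to 2028 in water. The fifth shoot marker (Os12g0291400) and the stele marker HKT1;5 did not pass the filter. The part of these cell types in the PIP falls was not tested. Of 4 reference genes, 1 was called higher, 1 lower and 2 neither, beside 29.1% higher and 20.7% lower over all tested genes. The median log2 ratio of the 4 reference genes was 0.09.

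**Figure D4:**
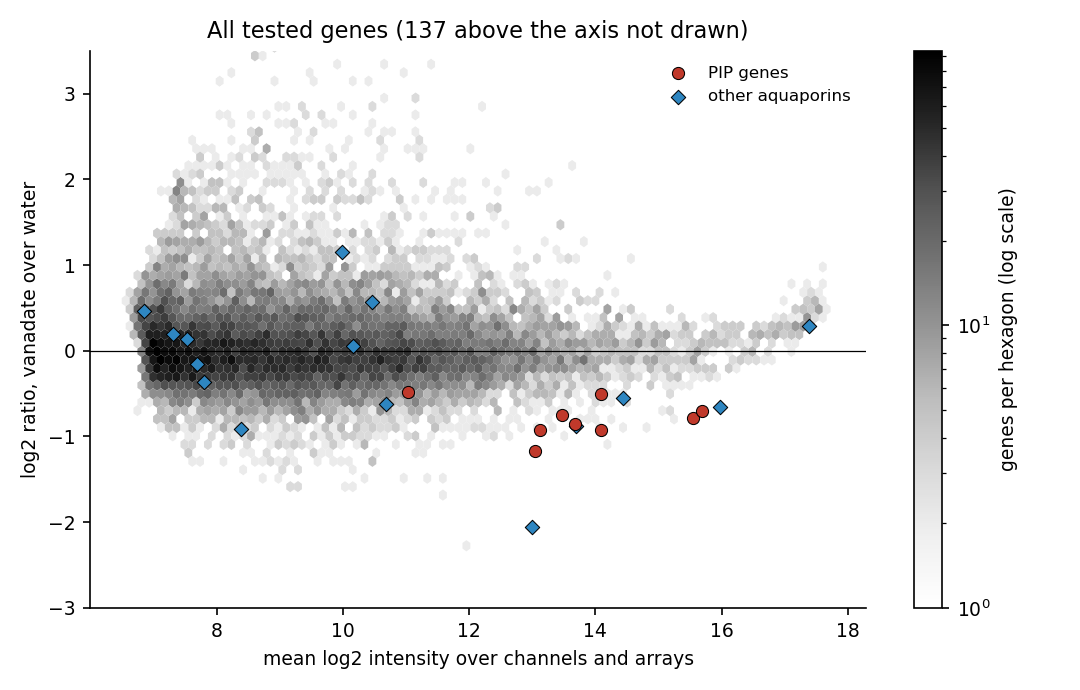
Log2 ratio of vanadate over water against mean log2 intensity for all tested genes (grey hexagons, darker where more genes lie), with PIP genes as red circles and other aquaporins as blue diamonds. The 9 PIP genes are bright and lie below 0, while other aquaporins lie on both sides.

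The other aquaporins of rice moved in both directions. They are the tonoplast channels (TIPs) of the vacuole, the NOD26-like channels (NIPs) that carry silicic acid and other small solutes, the small SIPs of internal membranes, and PIP2-8. Of 20 such loci, 18 had a probe and 15 were tested, of which 3 rose, 7 fell and 5 were not called, with a median log2 ratio of -0.16. Of the 3 that rose, TIP3-2 (Os04g0527900) was dim, with mean levels of 137 in vanadate and 99 in water. It was well above background on 2 arrays in vanadate and on 0 in water. Over all tested genes, 29.1% were called higher and 20.7% lower. Under median centring 4 of the 15 were called lower, beside 14.7% of all tested genes. PIP2-8 (Os03g0861300), a further PIP gene, had dim signals of 208, 197 and 180 in vanadate and 211, 247 and 196 in water. Its log2 ratio of -0.16 ± 0.09 (SE, n = 3, adjusted p = 0.201 in limma) was not called, with a 95% interval of -0.38 to 0.06.

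Among the other aquaporins, the largest rise was that of the tonoplast gene TIP4-1 (Os05g0231700), with 1456, 1542 and 1546 in vanadate against 659, 633 and 753 in water. This was a 2.23-fold rise (log2 ratio 1.16 ± 0.09, SE, adjusted p = 0.000125 in limma). NIP1-2 (Os01g0202800) rose 1.48-fold (log2 ratio 0.56 ± 0.08, SE, adjusted p = 0.00238 in limma). The largest falls were those of the silicon channel NIP2-1, also called Lsi1 (Os02g0745100), at -2.06 ± 0.20 (SE, adjusted p = 0.000399 in limma), and of TIP4-2 (Os01g0232000), at -0.91 ± 0.11 (SE, adjusted p = 0.000828 in limma). TIP4-1 and TIP4-2, of one TIP subgroup, thus moved in opposite directions.

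Genes with nearly the same 3 ratios as PIP2-3 were looked up by Euclidean distance over the 3 arrays. The closest were Os05g0135500, at a distance of 0.0856 with log2 ratios of -0.96, -1.07 and -1.34, and Os05g0386700, at 0.0952 with -1.01, -1.15 and -1.30. In all, 47 tested genes lay within 0.25. The files used here give these IDs no name.

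The PIP genes were also lower on the other scales that the files offer. With the processed signals of the scanner software the median log2 ratio of the 9 genes was -0.83, and in the authors' value table it was -0.87. Both are uncentred, with the median of all tested genes at -0.12 in each. Relative to that median the PIP genes had a median of -0.72 with the processed signals and of -0.76 in the value table, against -0.81 here. Of all called genes, 58.5% were higher here, against 42.1% with the processed signals and 42.3% in the value table. In both of those, all 9 PIP genes were called lower, beside 31.0% and 30.9% of all tested genes, against 20.7% here.

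**Figure D5:**
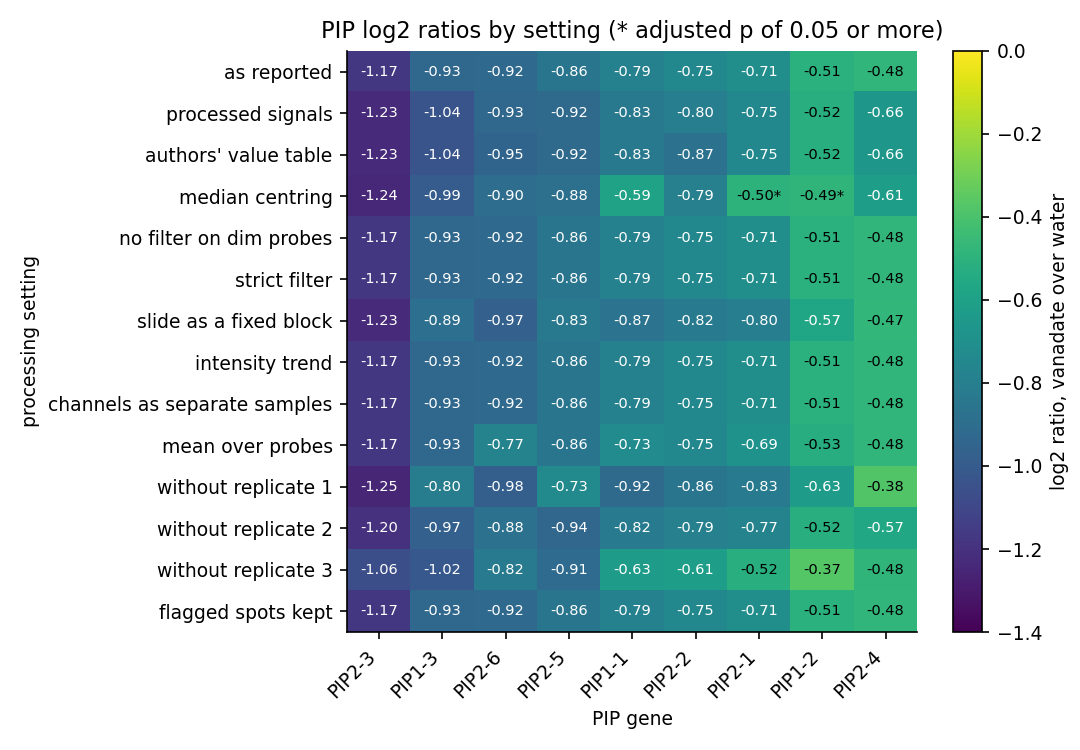
Log2 ratio of vanadate over water of each tested PIP gene (columns) as reported and under 13 other processing settings (rows), with an asterisk where the adjusted p was 0.05 or more. All values are below 0, and the 2 asterisks are PIP1-2 and PIP2-1 under median centring.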

How the data were processed

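Spot intensity values were deposited as written by version 10.7.1.1 of Agilent Feature Extraction. Median spot and background intensity are uncorrected, while the processed signal intensity, per the file headers, has background subtracted and dyes normalized by the scanner software. The deposited value table holds log2 ratios that equal log2 of red over green processed signal, to within 0.01 for 99.96% to 99.97% of matched probes on each array. They therefore run as vanadate over water. The deposited log10 ratio column was not tested. No sequence of these genes or probes was used here.

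Here, the median signal was corrected with normexp (offset 50) and normalized by loess within arrays in limma 3.58.1 under R 4.3.3. Control spots had weight 0, and outlier-flagged spots were left out. A probe was tested with a value on all 3 arrays and, on 2 arrays or more, a signal well above background in vanadate or water, and 31159 of 42418 probes met this. Log2 ratios were tested against 0 with lmFit and eBayes, two-sided, p-values were adjusted over these probes by Benjamini-Hochberg, and the threshold was 0.05. A gene was represented by its brightest tested probe. Channel levels are those after loess and Aquantile. The fit was tested on simulated data. The number of arrays limits the precision, and as no label says that replicates came from separate plantings, p-values measure only the spread between these samples.

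All PIP loci were named, with PIP2-8, the 2 largest called rises and falls of the other aquaporins, and the 2 genes most like the PIP gene of largest change. Members and lists were chosen with earlier results of these data known. Locus IDs of the other lists rest on general knowledge, with no annotation at hand to check them. Alternatives were the processed signals, the value table, median centring, other filters, slide as a block, an intensity trend, separate channels, the mean over probes, each replicate left out and, chosen after seeing the data, outlier-flagged spots kept.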

Additional observations from a re-analysis of the deposited data

How the results depend on the processing

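Under 13 alternatives, all 117 log2 ratios of the 9 tested PIP genes stayed below 0, and 115 were called. The 2 exceptions were PIP1-2 and PIP2-1 under median centring (adjusted p = 0.0566 and 0.0523 in limma). In that setting 7 PIP genes were called lower, beside 14.7% of all tested genes. The cause of the 2 exceptions was not tested. The PIP median ranged from -0.83 to -0.63 with 1 replicate left out, and from -0.87 to -0.75 under the others. With replicate 1, 2 or 3 left out, 9 PIP genes were called lower each time, beside 16.2%, 12.7% and 17.1% of all tested genes. Of the other aquaporins, 4 were called lower under median centring against 7, and 3 or 4 higher throughout. With 1 replicate left out, 6 or 7 were lower. More were lower with the processed signals (8 of 15), in the value table (9 of 16) and with outlier-flagged spots kept (8 of 16). Of all tested genes, 31.0%, 30.9% and 20.7% were called lower in these settings, against 20.7% in the reported fit. Over all genes, 6412 were called higher and 4549 lower. Numbers that differed by over 1.5 times were 4204 higher under median centring, 6834 lower with the processed signals, 6918 lower in the value table and 2790 lower without replicate 2. With a fixed term for slide, whose spread rests on replicates 1 and 2, 9 PIP genes were lower, beside 23.2% of all tested genes. The PIP median there was -0.83. The log ratio pairs both treatments of a replicate within an array. With channels as separate samples, 9 PIP genes were lower, beside 21.6% of all tested genes, and the PIP median was -0.79. Signal over background does not limit the 9 tested PIP genes, whose channels were well above background on all arrays, but gives no ratio for PIP2-7.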
